A study of Homo sapiens with 5 samples.

Results

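SF-1 sites near chromosome ends were the peaks on chromosomes 1 to 22 whose centre lay within 1 Mb of the first or last known base of the chromosome in the hg19 build. A peak within 1 Mb of an internal run of 1 Mb or more of unknown bases would have been left out, and none was. The rule found 981 of the 30372 peaks in the data, or 3.23%. Of the 30372 peaks, 29995 lay on these 22 chromosomes. It used position only, so base composition, genes, rank and sharing are measured independently of it.

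Steroidogenic factor-1 (SF-1, encoded by NR5A1) is a nuclear receptor that controls steroidogenic genes in adrenal cortex and gonads, and it binds DNA as a monomer. Human chromosome ends carry the telomere, tandem copies of TTAGGG, and next to it the subtelomere, where degenerate telomere-like repeats and blocks copied between chromosomes are common. Further inward many ends are rich in genes and in G and C bases. Sequence copied between chromosomes is hard to cover with short reads, since a read cannot be assigned to a single copy.

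Chromatin immunoprecipitation followed by sequencing was performed in H295R/TR SF-1 cells, a single subclone of the human adrenocortical tumor line H295R in which doxycycline induces additional SF-1. Basal lists came from cells grown without doxycycline and overexpressed lists from cells treated for 3 days. Each dosage was studied with an antibody from Millipore and one from Perseus, and each of the 4 lists was called by the authors on 3 pooled libraries against 2 libraries of input DNA. Near the ends lay 92 basal Millipore peaks, 413 overexpressed Millipore peaks, 218 basal Perseus peaks and 258 overexpressed Perseus peaks. With 1 list per group there is no replicate error and no test between dosages or antibodies. Read depth is unknown, and a deeper library yields more peaks. The 95% intervals below cover counting error over peaks only, and peaks of the same end are not independent.

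The label does not hold for every member. The reference sequence of chromosomes 13, 14, 15, 21 and 22 begins beside an unknown run that takes in all or part of the short arm, not at a telomere. At these starts the letter p marks the first known base, whichever arm holds it. These 5 starts held 81 members, 4, 10, 29 and 38 in the basal Millipore, overexpressed Millipore, basal Perseus and overexpressed Perseus lists. Values without them are given where they change a call or direction, and for some other results.

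The members that came up most consistently are shown first by their sequence, read from the GRCh37 reference (the hg19 build). Joining overlapping members of all lists gave 774 sites, of which 10 were present in all 4 lists. Sites in all lists that carried arrays of GGTCA, here called the half-site, are shown with each GGTCA in capitals, or TGACC where it lies on the other strand. GGTCA forms the end of TCAAGGTCA, a form of the SF-1 consensus defined below. The first lies in intergenic sequence of 5p, the second on 7q within LINC00689, a noncoding gene (intron), and the third in an intron of PALM on 19p.
5p, chr5:49786-49905: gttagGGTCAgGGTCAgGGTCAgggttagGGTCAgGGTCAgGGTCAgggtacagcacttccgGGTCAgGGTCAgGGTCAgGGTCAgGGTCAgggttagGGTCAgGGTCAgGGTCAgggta
7q, chr7:158806200-158806319: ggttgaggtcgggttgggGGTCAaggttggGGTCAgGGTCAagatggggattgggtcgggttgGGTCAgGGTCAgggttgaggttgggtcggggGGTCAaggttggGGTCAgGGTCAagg
19p, chr19:727264-727383: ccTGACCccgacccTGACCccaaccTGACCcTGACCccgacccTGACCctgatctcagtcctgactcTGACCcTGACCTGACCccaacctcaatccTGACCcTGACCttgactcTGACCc

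In these 120 bp windows the half-site occurred 14, 8 and 11 times in the order given, and 24, 25 and 26 times in the whole sites. In the 5p and 7q windows each marked copy follows a G, and on 19p most do, whereas the consensus has A in that place. On 7q and 19p the consensus defined next was present in the site as well, and on 5p it was not.

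The other consensus-bearing four-list sites each held 1 or 2 isolated matches. The SF-1 consensus was taken as TCAAGGTCA, TCAAGGTCG, TCAAGGCCA, TCAAGGCCG, CCAAGGTCA, CCAAGGTCG, CCAAGGCCA or CCAAGGCCG on either strand, without mismatch, and it is in capitals here. A match describes the letters of the site and does not show that SF-1 was bound to them. At the AHRR site the match lay within the peaks of the other lists but not within the overexpressed Millipore peak.
4p, upstream of CPLX1, chr4:830653-830713: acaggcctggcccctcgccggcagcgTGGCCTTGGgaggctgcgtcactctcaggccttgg
5p, AHRR intron, chr5:400294-400354: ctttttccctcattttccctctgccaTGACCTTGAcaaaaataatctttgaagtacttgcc
18p, ENOSF1 exon, chr18:693038-693062: tggggaagtcacatgcTCAAGGTCA
20p, NRSN2 intron, chr20:328608-328668: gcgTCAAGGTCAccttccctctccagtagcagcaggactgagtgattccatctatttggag

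The density of peaks was higher near the ends than in the rest of the chromosomes in each list. The end windows hold 42.5 Mb of known sequence, 1.58% of that of chromosomes 1 to 22. In the basal Millipore list there were 2.17 peaks per Mb near the ends and 1.61 elsewhere, a ratio of 1.35 (95% exact interval 1.08 to 1.66). The overexpressed Millipore list had 9.72 and 4.30 peaks per Mb, a ratio of 2.26 (2.04 to 2.49). The ratio was 2.15 (1.87 to 2.46) in the basal Perseus list, from 5.13 and 2.38 peaks per Mb. In the overexpressed Perseus list it was 2.26 (1.99 to 2.56), from 6.07 and 2.69. The basal Millipore list thus had the smallest excess. Without the 13q end, which held 12 of its 92 members, its ratio was 1.19 and the interval (0.944 to 1.49) included 1.

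This excess did not stand apart from the base composition and gene content of the ends. The end windows were 47.7% G and C, against 40.9% elsewhere, and held 666 starts (TSS) of protein-coding genes, or 15.7 per Mb against 7.03. When the rest was reweighted to the GC content of the end windows, in 10 kb windows, the ratios became 0.951 (0.769 to 1.18), 0.837 (0.756 to 0.926), 1.097 (0.954 to 1.26) and 0.977 (0.859 to 1.11) for basal Millipore, overexpressed Millipore, basal Perseus and overexpressed Perseus. The overexpressed Millipore peaks were then less dense near the ends than in sequence of the same GC content, and the other 3 intervals included 1. Per protein-coding TSS the ratios were 0.604 (0.486 to 0.742), 1.01, 0.965 and 1.01, so that the basal Millipore list had fewer peaks per gene near the ends. The part of GC content and of genes in the excess was not tested separately from each other.

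**Figure D1:**
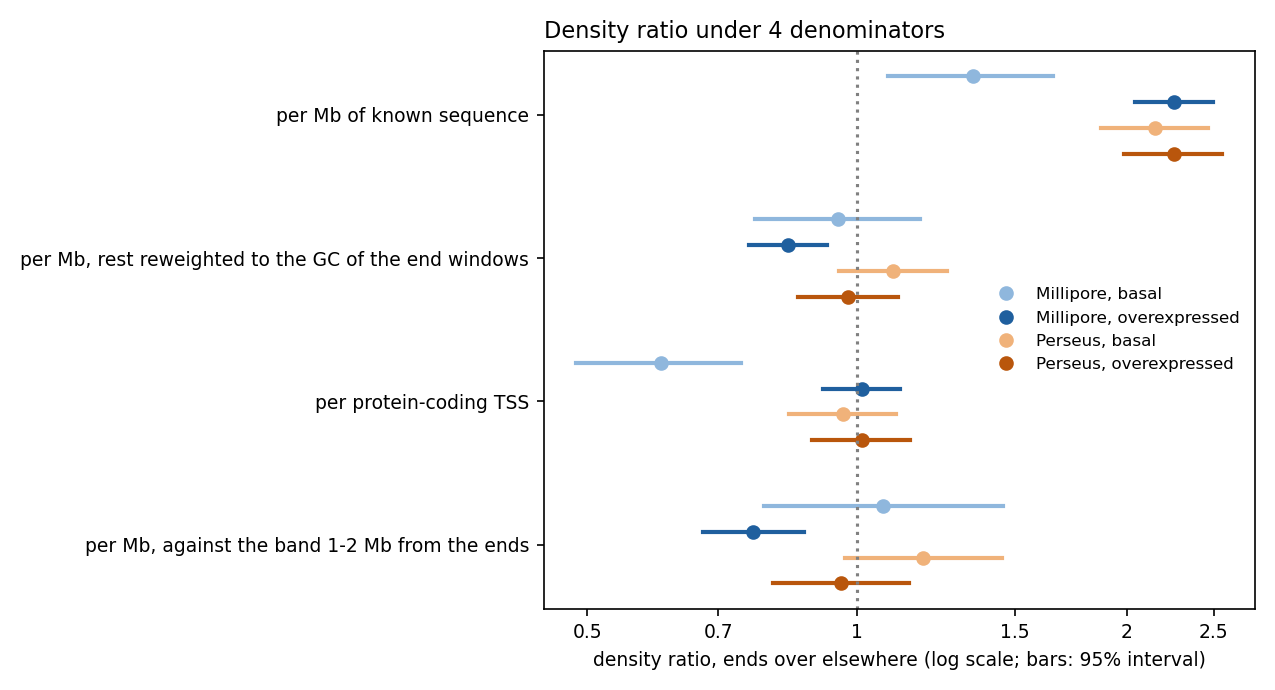
Ratio of peak density near chromosome ends to that elsewhere (x axis, log scale), with 95% intervals as bars, for the 4 lists under 4 denominators. Per Mb all ratios lie above 1 (1.35 to 2.26), whereas after reweighting to the GC content of the end windows they lie between 0.837 and 1.097.

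Density did not rise steadily towards the last base. Leaving aside the 5 starts beside unknown short arms, the overexpressed Millipore list had 6.11 peaks per Mb in the outermost 0.1 Mb, 12.5 at 0.5 to 1 Mb and 13.5 at 1 to 2 Mb, before falling to 3.82 beyond 10 Mb. The band from 1 to 2 Mb was thus denser than the end windows. With the 5 starts included, the ratio of end windows to band was 0.766 (0.672 to 0.873). The overexpressed Perseus list followed a similar course, with 4.25, 6.67, 6.44 and 2.51 peaks per Mb at the same distances. The basal Perseus list changed little within 2 Mb of the end, from 5.58 peaks per Mb in the outermost 0.1 Mb to 4.44 at 1 to 2 Mb, and fell to 2.26 beyond 10 Mb. For the basal lists and the overexpressed Perseus list the ratios to the band, again with all 44 ends, were 1.07 (0.788 to 1.45), 1.18 (0.968 to 1.45) and 0.959 (0.805 to 1.14), for basal Millipore, basal Perseus and overexpressed Perseus. Just inside the 1 Mb border, at 0.9 to 1 Mb, lay 106 peaks with a mean GC content of 63.3%, and just outside, at 1 to 1.1 Mb, 114 peaks with 62.8%.

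**Figure D2:**
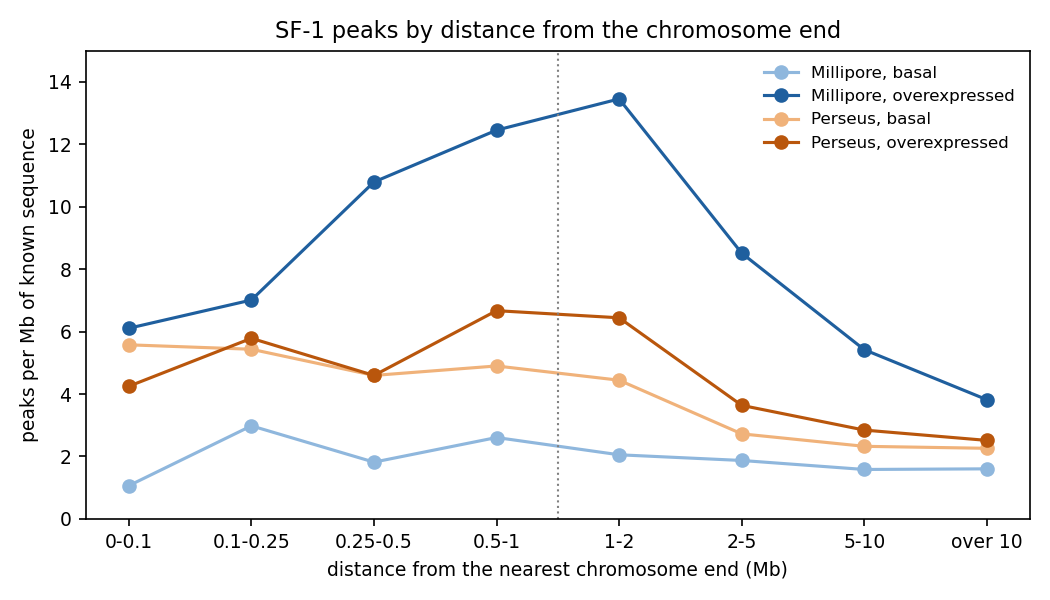
Peaks per Mb of known sequence (y axis) by distance from the nearest chromosome end in bins of unequal width in Mb (x axis), one line per list, without the starts of chromosomes 13, 14, 15, 21 and 22. The dotted line marks 1 Mb; the overexpressed Millipore list peaks beyond it, at 13.5 per Mb.

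Members were distributed very unevenly over the 44 ends. The 5 fullest ends, 9q, 13q, 5p, 4p and 16p, held 352 members, or 35.9%, in 5 of 44 windows. At 9q there were 7, 40, 16 and 23 peaks in the basal Millipore, overexpressed Millipore, basal Perseus and overexpressed Perseus lists. At 13q there were 12, 40, 15 and 15 in the same order, although only 0.800 Mb of this window is known sequence. The counts were 8, 26, 17 and 11 at 5p, 6, 30, 10 and 15 at 4p, and 4, 30, 8 and 19 at 16p. They were chosen on the sum over lists and are not in every list its 5 fullest, but each held more peaks than the median end in every list, 1, 5, 3.5 and 4 in that order. In the overexpressed Millipore list the 13q window had 50.01 peaks per Mb, against 3.51 in the rest of chromosome 13.

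Some gene-rich ends were nearly empty. The 11p window, with 46 protein-coding TSS and a GC content of 55.1%, held 7 members, and the 22q window, with 36 TSS and 54.5%, held 4. Neither had any basal Perseus peak. The 8p window held none in any list, although all of its 1 Mb is known. Peaks were present at 33, 40, 37 and 39 of the 44 ends in the basal Millipore, overexpressed Millipore, basal Perseus and overexpressed Perseus lists. The ends were denser than the rest of their own chromosome at 17, 24, 31 and 30 of these. Short and long arms did not differ measurably. Without the 5 starts beside unknown short arms, the ratio of p to q ends in peaks per Mb was 1.07 (0.686 to 1.66), 0.977 (0.797 to 1.19), 0.903 (0.667 to 1.22) and 1.11 (0.844 to 1.46).

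**Figure D3:**
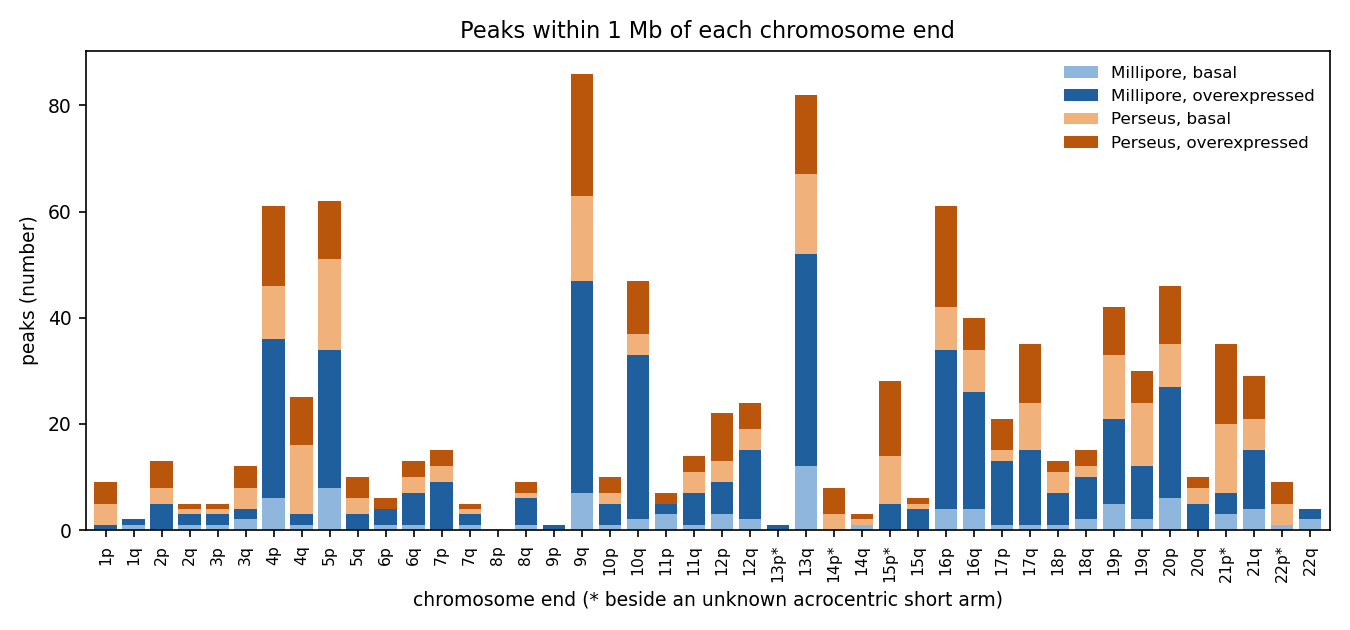
Number of peaks within 1 Mb of each chromosome end (y axis), stacked by list, for the 44 ends in chromosome order; an asterisk marks the 5 starts beside an unknown acrocentric short arm. The ends 9q and 13q carry 86 and 82 peaks, and 8p none.

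The change of the lists with SF-1 dosage was compared between the ends and the rest. With the Millipore antibody the number of members rose from 92 to 413, or 4.49-fold, while the rest of the list rose 2.68-fold, from 4248 to 11364. The ratio of these changes was 1.68 (95% interval 1.34 to 2.11). With the Perseus antibody the members went from 218 to 258, or 1.18-fold, and the rest 1.13-fold, a ratio of 1.05 (0.873 to 1.26). The ratio between the antibodies was 1.599 (1.19 to 2.14). The Millipore value moved with base composition and with the choice of comparison. Within strata of 5 points of peak GC content the odds ratio was 0.874 (0.687 to 1.11), and against the band 1 to 2 Mb from the ends the ratio was 0.716 (0.519 to 0.988), in the opposite direction.

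Members were richer in G and C than the other peaks of each list. Mean GC content was 56.2% (SD 9.97, 92 peaks) against 46.3% in the basal Millipore list, a difference of 9.97 points (7.91 to 12.02). It was 60.7% (SD 8.10, 413 peaks) against 55.2% in the overexpressed Millipore list, 57.9% (SD 16.2, 218 peaks) against 52.1% in the basal Perseus list, and 58.9% (SD 14.6, 258 peaks) against 54.1% in the overexpressed Perseus list. Those differences were 5.43 (4.63 to 6.23), 5.74 (3.55 to 7.93) and 4.78 (2.97 to 6.60) points. Windows 5 kb to either side of the members averaged 51.7%, 53.5%, 49.5% and 51.4% in the same order of lists, so the members exceeded their own surroundings by 4.51, 7.12, 8.37 and 7.49 points. Members at the starts beside unknown short arms were different, with a mean GC content of 40.2% in the basal Perseus and 44.8% in the overexpressed Perseus list, and of 72.0% and 62.7% for the 4 and 10 Millipore members. Without these starts the GC differences from the rest were 8.45 points (6.33 to 10.6) in the basal Perseus and 7.21 (5.48 to 8.94) in the overexpressed Perseus list. Against peaks 1 to 10 Mb from the ends the Perseus differences turned to -0.942 and -0.877 points.

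The place of members relative to genes depended on the distance considered. Within 1 kb of a protein-coding TSS lay 6 basal Millipore members (6.52%; 4.12% of that whole list on chromosomes 1 to 22), 54 overexpressed Millipore members (13.1%; 12.7%), 69 basal Perseus members (31.7%; 26.5%) and 74 overexpressed Perseus members (28.7%; 26.7%). The differences from the rest of each list were 2.45 (-1.11 to 9.46), 0.412 (-2.57 to 4.06), 5.29 (-0.621 to 11.8) and 2.04 (-3.24 to 7.92) percentage points, and all intervals included 0. Within 10 kb of a TSS members were more frequent than other peaks in 3 lists, by 11.99 (3.73 to 21.98) points in the basal Millipore, 10.2 (5.46 to 15.04) in the overexpressed Millipore and 12.1 (5.41 to 18.8) in the basal Perseus list, and the 3.92 points (-2.18 to 10.1) of the overexpressed Perseus list included 0. Compared with peaks of the same GC content, members were less often within 1 kb of a TSS in 3 lists, with differences of -6.88 points (-9.84 to -3.91) in the overexpressed Millipore list, -6.06 (-11.2 to -0.934) in the basal Perseus and -6.54 (-11.3 to -1.75) in the overexpressed Perseus list. Without the 5 starts beside unknown short arms, which hold 6 of the 666 TSS and no member within 10 kb of one, the unadjusted Perseus differences were 10.2 (3.53 to 17.3) and 6.99 (0.984 to 13.5) points.

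Introns were the most frequent place. Introns of protein-coding genes held 55.4%, 47.2%, 35.8% and 37.6% of the basal Millipore, overexpressed Millipore, basal Perseus and overexpressed Perseus members, and intergenic sequence 22.8%, 22.3%, 27.5% and 28.3%. In the rest of the lists the intron shares were 43.6%, 43.7%, 39.6% and 41.0% and the intergenic shares 34.1%, 29.2%, 30.3% and 28.5%. Coding exons held none of the 92 basal Millipore members, which allows a share of up to 4.01%, and 37 overexpressed Millipore members, or 8.96% (6.57 to 12.1%), beside 2.66% and 6.42% of the rest of the Millipore lists. For basal and overexpressed Perseus the shares were 4.59% and 3.88% of members and 4.54% and 5.94% of the rest.

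The SF-1 consensus was about as frequent in members as in other peaks. It was present in 16 basal Millipore members (17.4%; 15.9% of the whole list), 41 overexpressed Millipore members (9.93%; 10.9%), 38 basal Perseus members (17.4%; 21.7%) and 43 overexpressed Perseus members (16.7%; 17.3%). The differences from the rest were 1.55 (-4.94 to 10.6), -0.993 (-3.59 to 2.32), -4.40 (-8.98 to 1.28) and -0.662 (-4.81 to 4.44) points. Within 0.5 Mb of an end the basal Perseus difference was -11.6 points (-16.2 to -4.33).

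Among sites found in several lists, the consensus was rarer near the ends. It was present in 56 of 627 sites of a single list (8.93%), 18 of 103 in 2 lists (17.5%), 10 of 34 in 3 lists (29.4%) and 6 of 10 in all 4. In the rest these shares were 10.1%, 28.9%, 47.8% and 69.4%. For sites in 2 or more lists this made 34 of 147 near the ends (23.1%) and 1155 of 3335 elsewhere (34.6%), a difference of -11.5 points (-17.8 to -3.89). This comparison was chosen after the counts had been seen. In both places the share rose with each further list. A site was counted if any of its peaks held the consensus, so sites in more lists had more peaks in which to hold it.

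Basal members of either antibody were found again in the overexpressed list more often than other basal peaks. Of the basal Millipore members 25, or 27.2%, overlapped an overexpressed Millipore peak (12.4% of the whole list, 12.1% of the rest), a difference of 15.1 points (7.00 to 25.01). Of the basal Perseus members 91, or 41.7%, overlapped an overexpressed Perseus peak (29.3% of the whole list, 28.9% of the rest), a difference of 12.8 points (6.38 to 19.6). Conversely, 93 overexpressed Perseus members, or 36.0%, overlapped a basal Perseus peak (26% of the whole list), 10.4 points (4.71 to 16.5) above the rest. Of the overexpressed Millipore members 23, or 5.57%, overlapped a basal Millipore peak (4.53% of the whole list), and the difference of 1.07 points (-0.800 to 3.75) included 0.

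Between antibodies, 22 basal Millipore members, or 23.9%, overlapped a basal Perseus peak (11.5% of the whole list), 12.6 points (5.02 to 22.3) above the rest. In the other pairs the intervals included 0. A Millipore peak of the same dosage was overlapped by 20 basal Perseus members (9.17%; 7.63% of the whole list) and by 59 overexpressed Perseus members (22.9%; 18.6%). A Perseus peak was overlapped by 59 overexpressed Millipore members (14.3%; 11.5%). Without the 5 starts beside unknown short arms the difference of the overexpressed Perseus members in overlap with Millipore was 6.60 points (1.26 to 12.8). Compared with peaks of the same GC content the basal Millipore differences fell to 0.344 points (-8.35 to 9.03) with the overexpressed list and 1.499 points (-7.08 to 10.1) with the Perseus list. The Perseus differences between dosages were 9.14 (2.53 to 15.7) and 7.93 (1.95 to 13.9) points in such strata, for basal in overexpressed and the reverse. Against peaks 1 to 10 Mb from the ends, the difference between dosages was 8.06 points (-0.566 to 18.3) in basal Millipore members, and in basal Perseus members it was 5.41 (-1.58 to 12.6), with 0 inside both intervals. Those of basal Millipore in basal Perseus, 9.69 points (1.62 to 19.6), and of overexpressed Perseus in basal Perseus, 8.15 points (2.03 to 14.6), still left out 0. Members in no other list numbered 58, 330, 108 and 131, or 63.0%, 79.9%, 49.5% and 50.8% of the basal Millipore, overexpressed Millipore, basal Perseus and overexpressed Perseus members (whole lists 79.1%, 83.3%, 62.5% and 62.2%). Members found in all of the lists numbered 12, 10, 10 and 10, or 13.04%, 2.42%, 4.59% and 3.88% (whole lists 3.8%, 1.38%, 2.46% and 2.23%).

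**Figure D4:**
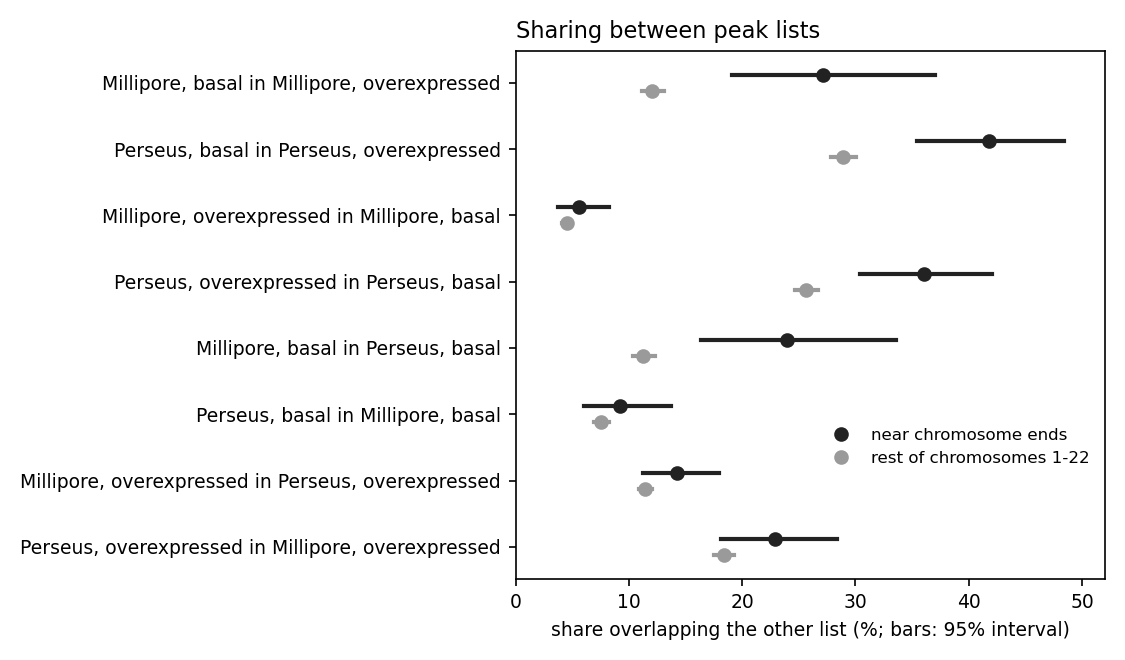
Share of peaks that overlap a peak of the other named list (x axis, percent), with 95% Wilson intervals as bars, for members (black) and the rest of chromosomes 1 to 22 (grey). The widest gaps are those of basal Millipore in overexpressed Millipore (27.2% and 12.1%) and of basal Perseus in overexpressed Perseus (41.7% and 28.9%).

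Perseus members ranked better than other Perseus peaks. In the best-ranked 25% of the list lay 73 basal Perseus members (33.5%; 24.9% of the whole list) and 87 overexpressed Perseus members (33.7%; 24.9%), 8.92 (2.89 to 15.5) and 9.17 (3.59 to 15.2) points above the rest. For the Millipore lists 28 basal members (30.4%; 25%) and 108 overexpressed members (26.2%; 25.1%) did so, with differences of 5.51 (-3.06 to 15.6) and 1.06 (-3.02 to 5.58) points. The files give the rank but not the quantity behind it.

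Present in all 4 lists were 10 of the 774 joined sites near the ends (1.29%), and 160 of 24608 in the rest (0.650%). They fall into 3 kinds, those with GGTCA arrays, those with isolated consensus matches, and 2 with neither. Of the array sites, the one in an intron of PALM (paralemmin, a membrane-anchored protein of neurons), at chr19:727001-727699, ranked 6 in the basal Millipore, 24 in the overexpressed Millipore, 147 in the basal Perseus and 371 in the overexpressed Perseus list. The site in LINC00689 at chr7:158805851-158806449 ranked 17, 31, 69 and 249 in the same order. The intergenic 5p site at chr5:49401-50099, 39.8 kb from the first known base, ranked 34, 106, 81 and 238 and held no consensus. These 3 sites were among the best-ranked 5% of each list. The fourth array site, not described here, was outside the best-ranked 5% in 1 list.

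The remaining sites ranked less evenly. The site upstream of CPLX1 (complexin-1, which acts in synaptic vesicle fusion), at chr4:830401-830899 in an exon of a noncoding gene, ranked 272, 611, 67 and 639. The ENOSF1 site at chr18:692851-693199, in an untranslated or noncoding exon, ranked 23 and 82 with the Millipore antibody but 1157 and 2874 with Perseus. A site in an intron of AHRR and of the readthrough gene PDCD6-AHRR (AHRR is the repressor of the aryl hydrocarbon receptor) at chr5:399601-400499 ranked 1430, 360, 188 and 163. The NRSN2 site (neurensin-2, a vesicle protein of neurons) at chr20:328301-328799 ranked 2585, 5332, 199 and 2955. Of those without consensus or array, the one at the start of ATP5ME (a subunit of mitochondrial ATP synthase) and in MYL5, at chr4:667901-668399, ranked 999, 491, 218 and 495. The other lay near the start of the known sequence of chromosome 21, at chr21:9825251-9826999, over the microRNA gene MIR3648, and ranked 2826, 57, 5 and 4. Its GC content was 81.5%, and 87.0% of its 25 bp words occurred more than once in the reference.

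**Figure D5:**
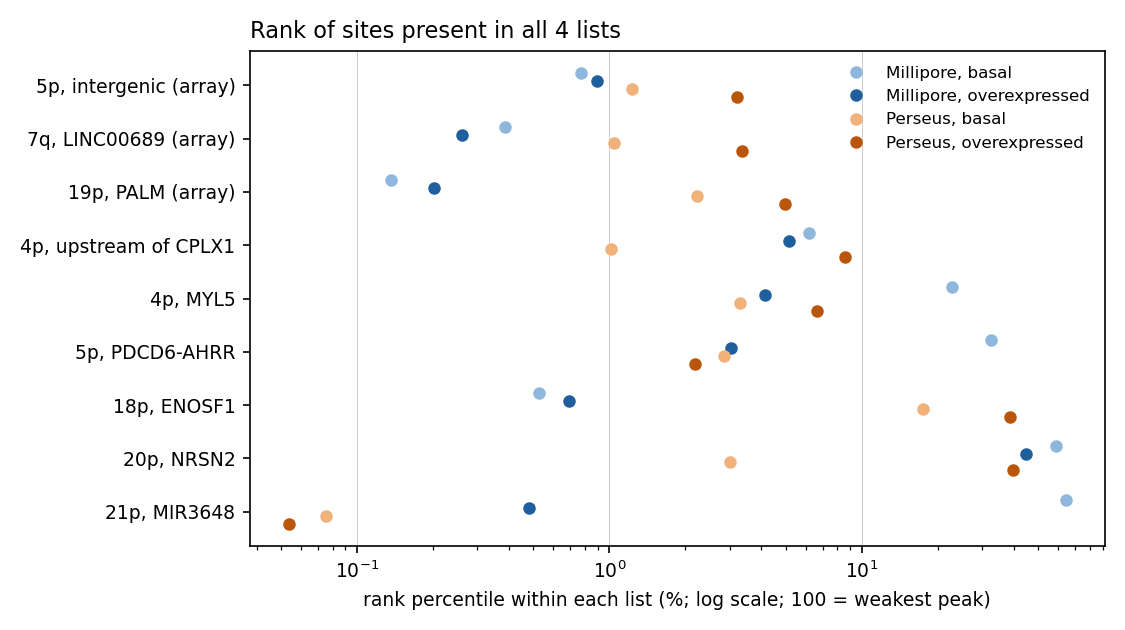
Rank percentile (x axis, log scale, low is better ranked) of 9 of the 10 sites near chromosome ends that are present in all 4 lists, with a point per list; "array" marks sites with GGTCA arrays. The 3 array sites plotted lie below 5% in every list, which the array site not plotted did not in 1 list, while the ENOSF1, NRSN2 and MIR3648 sites differ widely between lists.

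The arrays were then counted throughout chromosomes 1 to 22. An array was defined, after the sequences of the four-list sites had been read, as 6 or more GGTCA within 150 bp on one strand, so the counts describe the members and are not tested. The end windows held 100 such arrays, or 2.35 per Mb, and the rest 394, or 0.149 per Mb. Of the 100, 13 (95% Wilson interval 7.76 to 20.98%) were overlapped by a peak of any list, 10 by peaks of 2 or more lists and 4 by all 4. Of the 394 elsewhere, 29 (7.36%) were overlapped by a peak and 5 by all 4 lists. Thus most arrays carried no peak in either place.

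Of the members, 7 basal Millipore (7.61%; 0.346% of the whole list), 10 overexpressed Millipore (2.42%; 0.306%), 11 basal Perseus (5.05%; 0.322%) and 10 overexpressed Perseus peaks (3.88%; 0.38%) overlapped an array. They belonged to 15 sites on 11 ends. Arrays were present at 4 of 627 sites in a single list (0.638%), 3 of 103 in 2 lists (2.91%), 4 of 34 in 3 lists (11.8%) and 4 of 10 in all 4 lists. The four-list sites from which the definition was drawn are among these, so their sharing and rank are in part set by that choice. The median rank percentile of array members was 3.78% against 54.8% for the other members in the basal Millipore list. The medians were 24.3% against 51.9% in the overexpressed Millipore, 11.6% against 42.0% in the basal Perseus and 6.89% against 41.5% in the overexpressed Perseus list. For array peaks in the rest of the chromosomes the medians were 27.04%, 19.1%, 22.9% and 40.7% in the same order of lists. Without array peaks, the difference in sharing of the basal Millipore members with the overexpressed list was 10.4 points (2.80 to 20.4), and with the basal Perseus list 7.67 points (0.707 to 17.3).

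Telomere-type repeats, 2 adjacent copies of TTAGGG on either strand, occurred in 10 of the 981 members (1.02%; 0.04% of all peaks on these chromosomes) and in 2 of the 29014 other peaks. They lay at 5 sites, of which 3 are described. The 19q site, chr19:59097801-59098049 in an intron of the pseudogene CENPBD2P, was present in both Millipore lists (432 and 873) and the overexpressed Perseus list (3569). At chr21:48119651-48119849, 0.146 kb from the last known base, a basal Perseus peak ranked 2314. Another site, at chr22:16883551-16883899, lay 834 kb from the first known base of chromosome 22. It was present in the basal Millipore (850), basal Perseus (2378) and overexpressed Perseus (6420) lists. In all, the end windows held 114 blocks of this repeat, 2.68 per Mb against 0.234 in the rest, and 6 of the blocks (5.26%; 2.43 to 11.0%) were overlapped by a peak. Of the 5 sites, 3 also overlapped GGTCA arrays, those at 19q and on chromosome 22 among them.

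Part of the members lay in repeated sequence. At least 50% of the 25 bp words occurred more than once in the reference in 7 basal Millipore (7.61%; 0.876% of the whole list), 13 overexpressed Millipore (3.15%; 0.951%), 46 basal Perseus (21.1%; 6.95%) and 55 overexpressed Perseus members (21.3%; 6.4%). Copies within the same peak counted too, so tandem repeats are included and were not separated from copies elsewhere. Without the 5 starts beside unknown short arms the shares were 3.41%, 2.23%, 14.3% and 13.2%. No pair of sites on different ends shared 50% or more of these words. The best-ranked member of the basal Perseus list, which ranked 1, was of this kind. It lay at chr1:569701-570149 in MTCO3P12, a pseudogene of mitochondrial origin, where 66.6% of the words also occurred in the mitochondrial genome, and it ranked 20 in the overexpressed Perseus list. Neither Millipore list had a peak there. The best-ranked overexpressed Perseus member, of rank 4 there and 5 in the basal list, was that over MIR3648, with 87.0% repeated words. The next overexpressed Perseus member, of rank 18 there and 11 in the basal list, lay 4.27 kb from the first known base of chromosome 14, with 64.4% repeated words. Without peaks in repeated sequence, the differences in sharing between Perseus dosages were 11.3 points (basal in overexpressed) and 9.14 points, and those in the best-ranked 25% were 8.99 and 8.77 points, with all 4 intervals above 0.

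Protein-coding genes at the ends were then scored by a peak within 10 kb of the TSS. Of the 666 genes 43 (6.46%; 4.54% of all genes) had a basal Millipore peak, 165 (24.8%; 19.7%) an overexpressed Millipore peak, 132 (19.8%; 16.1%) a basal Perseus peak and 114 (17.1%; 17.8%) an overexpressed Perseus peak. Of the genes with a basal Millipore peak, 29 also had an overexpressed Millipore peak, that is 67.4% of the former and 17.6% of the latter. For the Perseus antibody 75 genes had peaks at both dosages, 56.8% and 65.8% of each set. In any list 255 genes (38.3%; 36.5% of all genes) had a peak. In all 4 lists a peak was present near 12 genes (1.80%; 1.08%). They were ATP5ME and MYL5 on 4p, EXD3, NOXA1, ENTPD8, ARRDC1 and EHMT1 on 9q, RHBDL1, STUB1 and JMJD8 on 16p, NRSN2 on 20p and DIP2A on 21q. Only the sites of ATP5ME, MYL5 and NRSN2 among these are four-list sites. At the other genes the peak of at least 1 list lay elsewhere, as at EXD3, with -37 bp in 3 lists and -8712 bp in the basal Millipore list. Near EHMT1 (a histone H3 lysine 9 methyltransferase), for instance, the nearest peaks were at -3544, 506, -3494 and -3144 bp in the basal Millipore, overexpressed Millipore, basal Perseus and overexpressed Perseus lists, where negative values are upstream of the TSS. Near STUB1 (a ubiquitin ligase) they were at 1776, 126, 26 and 126 bp. The 12 genes are not independent, since neighbours shared peaks. A single basal Millipore peak, of rank 1647, was counted for RHBDL1, STUB1 and JMJD8, and another, of rank 3574, for EXD3, NOXA1 and ENTPD8.

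Groups of genes with a TSS in the end windows were then described. Of all 666 genes of these windows 6.46% (basal Millipore), 24.8% (overexpressed Millipore), 19.8% (basal Perseus) and 17.1% (overexpressed Perseus) had a peak within 10 kb. In any list 38.3% had one. Of 13 genes of lipid and steroid metabolism, 2, 6, 4 and 4 had a peak within 10 kb in the basal Millipore, overexpressed Millipore, basal Perseus and overexpressed Perseus lists, and 8 had one in any list. LSS (lanosterol synthase, a step of cholesterol synthesis) had peaks at 288, -1112 and 238 bp in the last 3 lists, with ranks 6626, 4877 and 1509. DGAT1, which completes triglyceride synthesis, had them at -9852, 23 and 573 bp, with ranks 833, 5526 and 6383. CYP2E1, a cytochrome P450 of the liver that oxidizes ethanol, had peaks at 90, 15 and 40 bp, all within a single shared site, with ranks 9694, 2923 and 2605. ECHS1, an enzyme of fatty acid oxidation, had an overexpressed Millipore peak at -8142 bp and an overexpressed Perseus peak at -92 bp. These 4 genes had no basal Millipore peak within 10 kb.

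Of 7 mitochondrial genes 2 had a peak in each of the 4 lists, not always the same ones, and 3 in any list. SDHA, the catalytic subunit of succinate dehydrogenase, had peaks at 457, -68 and 407 bp in the basal Millipore, basal Perseus and overexpressed Perseus lists, and none within 10 kb in the overexpressed Millipore list. SPG7, a protease of the inner membrane, had peaks at -5652, -5702 and -5702 bp in all but the overexpressed Perseus list. TIMM22, of the inner-membrane translocase, had overexpressed peaks at -44 bp with Millipore and 131 bp with Perseus and no basal peak within 10 kb.

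Of 12 genes of growth, Wnt and receptor signalling 1, 3, 4 and 2 had a peak. NKD2, an inhibitor of Wnt signalling, had peaks at -3992, -3992 and -3742 bp in all lists but basal Millipore, with ranks 107, 129 and 1031. FGFRL1, a receptor of the fibroblast growth factor family, had peaks at 3376, 2701 and 1276 bp in the same lists. BSG (basigin) had a basal peak with each antibody, at 2173 bp with Millipore and 1148 bp with Perseus, and no overexpressed peak within 10 kb. FSTL3, which binds activin, had an overexpressed Millipore peak at 4433 bp and a basal Perseus peak at 4408 bp.

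Of 15 developmental transcription factors 1, 3, 2 and 1 had a peak. TFDP1, the dimerization partner of E2F factors, had peaks at 5264, -136 and -136 bp in all lists but basal Millipore, and the basal Perseus peak ranked 100. FOXK2, SOX8 and UTF1 each had a peak in a single list, at -364 bp in basal Perseus, -4620 bp in basal Millipore and -5421 bp in overexpressed Millipore. Of 16 genes of neuronal channels and synaptic proteins 1, 4, 2 and 3 had a peak. HCN2, a pacemaker channel, had them at -8031, -281 and 844 bp and GRIN3B, a glutamate receptor subunit, at 1232, -7918 and -9993 bp in all lists but basal Millipore. CPLX1 had peaks at -4008 bp in the overexpressed Millipore and 392 bp in the overexpressed Perseus list, its four-list site being just beyond 10 kb, at -10758 and -10708 bp in the basal lists. MAPK8IP2, a kinase scaffold, had Millipore peaks at -547 and -497 bp for basal and overexpressed.

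Of 11 genes of hormone, peptide and cAMP signalling 0, 2, 0 and 1 had a peak, and 3 had one in any list. KISS1R, the kisspeptin receptor, had an overexpressed Perseus peak at 63 bp, with a rank of 7441. OPRL1, the nociceptin receptor, and RGS19, a regulator of G protein signalling, have adjoining starts and shared an overexpressed Millipore peak of rank 11333, at 515 and -609 bp. In all 6 groups together 7, 20, 14 and 13 of 74 genes had a peak, beside 43, 165, 132 and 114 of the 666 genes in the end windows. Some peaks were counted for genes of different groups. The basal Millipore peak of rank 898 counted for CHKB (lipid metabolism) and MAPK8IP2, and that of rank 3682 for LMF1 (lipid metabolism) and SOX8. In any list 27 of the 74 had one, beside 255 of the 666 (38.3%; 36.5% of all genes).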

How the data were processed

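The 4 peak lists, 2 antibodies at basal and at raised SF-1, were used. The authors mapped Illumina reads (CASAVA 1.6 in the submitters' notes) to hg19 with ELAND and called peaks with CisGenome on 3 pooled libraries per list against 2 input libraries. The input had no list and was not analysed here. The deposited files give chromosome, start, end, a rank and a score, which the authors set to 1000 for every peak and which was not used. The quantity that was ranked is not given in the sources used here, nor is depth. Rank percentile is rank divided by list length.

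The members and the gene lists were chosen with earlier results of these data known. Peaks were placed on the GRCh37 sequence and the GENCODE 44 annotation lifted to it. Overlap needed 1 bp. Ratios of densities carry exact conditional binomial intervals, shares Wilson intervals, differences of shares Newcombe intervals and dosage ratios Woolf intervals, all at 95%. GC strata were 5 points wide (Mantel-Haenszel). Peaks were compared with the rest of chromosomes 1 to 22. Named items were sites in all 4 lists (the 8 with the smallest worst rank percentile, of which 7 are given here, and the 2 others), the 2 best-ranked members of each list, the 5 fullest ends, and up to 4 genes of each gene list with peaks in the most lists. Genes with peaks in all 4 lists, and the telomere-repeat and array sites, were named beyond that rule. The functions passed 11 of 11 checks on simulated data. Software was Python 3.11.15, numpy 2.4.6, pandas 2.3.3, scipy 1.17.1, statsmodels 0.14.6, numba 0.67.0, matplotlib 3.10.9 and samtools 1.23.1. Alternatives are given in the closing section. Some individual sites and sequences that the rule names are not reported here.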

Additional observations from a re-analysis of the deposited data

Results flagged for a closer look

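The change with SF-1 dosage near the ends, relative to the rest, differed between the antibodies. The Millipore value divided by the Perseus value was 1.599 (95% interval 1.19 to 2.14), and the interval excluded 1. Within strata of peak GC content the quotient was 0.853 (0.629 to 1.16). Against the band 1 to 2 Mb from the ends it was 0.884 (0.584 to 1.34). Both alternatives were added after the data had been seen, and no test across replicates was possible with 1 list per group.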

How the results depend on the processing

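Densities are ratios of end windows to the rest, shares and GC content are differences in points, and a call is an interval that leaves out 1 or 0. Of 373 alternative values 273 kept direction and call. With end windows of 0.5 Mb the basal Millipore density was 1.19, the Perseus dosage ratio 0.917, the overexpressed Perseus GC difference 2.52, the overexpressed Millipore share in Perseus 5.12 and in the best-ranked 25% -3.88, the consensus share -3.72 (basal Millipore) and -11.6 (basal Perseus), and the basal Millipore TSS share 8.15. With 2 Mb the Perseus dosage ratio was 1.17, the overexpressed Millipore share in Perseus 3.45 and the reverse 8.38, the consensus share -1.24 (basal Millipore) and 1.71 (overexpressed Perseus), the basal Millipore best-ranked share 6.87, and the TSS share 4.54 (basal Millipore), 8.75 (basal Perseus) and 4.52 (overexpressed Perseus). Without the starts beside unknown short arms the overexpressed Perseus share in Millipore was 6.60 and its consensus share 2.22, and the Perseus TSS shares were 10.2 and 6.99.

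In the better-ranked 50% of each list the Perseus dosage ratio was 0.990, the overexpressed lists' sharing 7.56 (Millipore in Perseus) and 7.33, the basal Millipore consensus share -6.76, and the TSS share -3.23 (overexpressed Millipore) and -3.96 (overexpressed Perseus). With lists of equal length the overexpressed Millipore share in basal Millipore was 5.13, in Perseus 7.58 and in the best-ranked 25% 8.41, and the TSS share -1.11 (overexpressed Millipore) and -4.28 (overexpressed Perseus). Against 1 to 10 Mb from the ends the Perseus GC differences were -0.942 and -0.877, the dosage ratio 1.06 (Millipore), 0.911 (Perseus) and 1.16 (quotient), the basal Millipore density 1.24, sharing 8.06 (basal in overexpressed Millipore), 5.41 (basal in overexpressed Perseus) and -3.57 (overexpressed Perseus in Millipore), the consensus share -0.831 (basal Millipore) and -8.21 (basal Perseus), and the basal Perseus best-ranked share 5.77. With peaks within 500 bp joined the overexpressed sharing was 3.53 and 6.38 and the overexpressed Perseus consensus share 0.369. Without repeated sequence the basal Millipore density was 1.25, the overexpressed Perseus consensus share 0.538 and the Perseus TSS shares 11.7 and 7.46.

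Within GC strata basal Millipore sharing was 1.499 (with Perseus) and 0.344 (with overexpressed), overexpressed Millipore in Perseus -1.22, the consensus share -3.92 (basal Millipore) and 0.212 (overexpressed Perseus), the overexpressed Millipore best-ranked share -0.370, and the TSS share -3.40 (basal Millipore), -6.88 (overexpressed Millipore), -6.06 (basal Perseus) and -6.54 (overexpressed Perseus). For basal Millipore, overexpressed Millipore, basal Perseus and overexpressed Perseus the density reweighted by GC was 0.951, 0.837, 1.097 and 0.977, and per TSS 0.604, 1.01, 0.965 and 1.01. With starts of all transcripts the TSS share was 7.81 (basal Millipore), 6.64 (overexpressed Millipore) and 8.33 (basal Perseus), and within 10 kb 11.99, 10.2 and 12.1. With the 7-letter core the consensus share was -1.10 (basal Millipore) and 0.0756 (overexpressed Perseus), and within 200 bp around the centre -0.0716 (basal Millipore) and -6.63 (basal Perseus). Overexpressed sharing was 3.37 (Millipore in Perseus) and 5.31 with 50% overlap of the shorter peak, and 4.06 and 8.05 with centres within 500 bp. In the better-ranked 50% the overexpressed Millipore share was -1.58. Within 100 kb 268, 496, 360 and 387 genes had a peak, in the same order of lists as above. The causes were not tested.

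Alternatives chosen after seeing the data were the band 1 to 2 Mb from the ends, GC strata for dosage and peaks without arrays, besides a rest without 1 Mb beside large gaps. Against the band the dosage ratio was 0.716 (Millipore), 0.810 (Perseus) and 0.884 (quotient), and the density 1.07, 0.766, 1.18 and 0.959. In GC strata the dosage odds ratio was 0.874 (Millipore) and 0.853 (quotient). Without arrays basal Perseus in basal Millipore was -0.244, the basal Millipore best-ranked share -0.294 and the basal Perseus consensus share -5.85.

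Leaving out 1 chromosome end at a time took the basal Millipore density from 1.19 (without 13q) to 1.38. Values whose call or direction changed were overexpressed Millipore in Perseus (2.51 to 3.67, without 16q) and the reverse (3.41 to 5.30, without 4q, 14p, 15p, 16q or 21p), the consensus share of basal Millipore (-0.287 to 4.16, without 3q) and overexpressed Perseus (-1.46 to 0.367, without 9q, 15p or 21p), the overexpressed Millipore best-ranked share (-0.284 to 1.80, without 4p or 13q), and the TSS share of basal Perseus (3.69 to 7.30, without 15p or 21p) and overexpressed Millipore (-0.504 to 1.28, without 8q, 11p, 19q, 20q or 22q). No paired analysis was possible because each group is a single list called on pooled libraries. Replicate error, depth and the signal behind each rank are unknown, and few basal Millipore members limit its intervals.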

Other observations

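Further sites on GGTCA arrays lay in genes of 18q and 20q. A group of 3 separate sites lay within an intron of SLC66A2 on 18q, at chr18:77679401-77679649, chr18:77679901-77680299 and chr18:77681601-77682049, and were present in 1, 2 and 3 lists, none of them basal Millipore. Of their 25 bp words 70.2%, 86.8% and 77.1% occurred more than once in the reference, copies within the same site included. On 20q a site in an intron of CHRNA4, a subunit of the nicotinic acetylcholine receptor, at chr20:61997901-61998349, ranked 4918 in the overexpressed Millipore, 191 in the basal Perseus and 379 in the overexpressed Perseus list.

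Of the 34 sites in 3 lists, 21 lacked only basal Millipore, the shortest list. In the rest of the chromosomes 437 of 670 such sites did so, so this is not particular to the ends. The 21 sites included the starts of CHAMP1, CDC16, WDR18, SNRNP25 and GAK. The CHAMP1 site on 13q, at chr13:115079651-115079899 and -182 bp from the TSS, ranked 943 in the overexpressed Millipore, 84 in the basal Perseus and 131 in the overexpressed Perseus list. Conversely, a 14q site at chr14:107161651-107161949 ranked 44, 60 and 57 in the basal Millipore, basal Perseus and overexpressed Perseus lists and lacked a peak in the overexpressed Millipore list, the longest. These sites were chosen after their values had been seen.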
